A study of Homo sapiens with 18 samples.

Results

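The Polycomb complex genes measured here were 35 genes that encode the subunits and accessory proteins of the chromatin complexes PRC1, PRC2 and PR-DUB, chosen by gene symbol from the 20365 genes of the deposited tables. RNA of the established human cell line PC3, from a prostate cancer, was sequenced in 18 libraries. Lentiviral vectors delivered short hairpin RNAs that target Elongin B in the group EloB KD and Elongin C in the group EloC KD, while Control KD is the control knockdown, all grown with 10% serum. In a separate peptide experiment, cells kept with 2.5% serum received a BC-box peptide in its WT or Mutant form, or a Scrambled peptide, for 24 h at 12,5 µM (with the decimal comma of the labels). The question of the study was what PC3 cells express when Elongin B or Elongin C is depleted, or when a peptide modelled on the BC-box is added. Each of the 6 groups had 3 replicates. The hairpin and peptide sequences and the number of hairpins or clones behind each knockdown are not given in the sources used here. Whether the replicates are separate cultures is not stated in the labels, and p-values therefore cover only the spread between these samples, which may be technical.

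Polycomb complexes keep genes silent by marking histones. PRC2 methylates lysine 27 of histone H3 through EZH2 or EZH1, held by EED, SUZ12 and RBBP4 or RBBP7. Its accessory proteins guide it to DNA, either a Polycomb-like protein (PHF1, MTF2 or PHF19), which may be joined by EPOP, or JARID2 with AEBP2. PRC1 ubiquitinates histone H2A through RING1 or RNF2 paired with a PCGF protein. In canonical PRC1 a CBX protein reads the methyl mark and a PHC protein compacts chromatin, whereas variant PRC1 carries RYBP or YAF2 and can be brought to CpG islands by KDM2B with BCOR. PR-DUB, made of BAP1 and an ASXL protein, removes the ubiquitin. Elongin B and Elongin C form a dimer that binds BC-box proteins, among them Elongin A, the substrate receptors of cullin ubiquitin ligases, and EPOP.

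The libraries held between 40288528 and 57225737 reads in the knockdown experiment and between 31671205 and 34699856 reads in the peptide experiment. ELOB had 596, 478 and 535 normalised read counts in EloB KD, against 2626, 4118 and 4950.3 in Control KD, a 7.04-fold lower level. ELOC had 492, 497 and 558 normalised read counts in EloC KD and 4797, 4097 and 4547 in Control KD, an 8.67-fold lower level. The partner of each targeted gene stayed present, and ELOA, which encodes Elongin A, was lower in EloC KD (-0.73 ± 0.10 log2, limma adjusted p = 0.000332). All 6 markers of PC3 and epithelial cells were above 1 TPM, a level scaled to exon length and library depth, in every group. They were KRT8, KRT18, KRT19, EPCAM, VIM and CD44. At a limma adjusted p under 0.05, 1 was higher and 3 lower in EloC KD (66.7%, beside 42.5% of all genes tested). In EloB KD 0 were higher and 1 lower (16.7%, beside 20.5%). Meanwhile 4 of 5 luminal prostate markers were under 1 TPM, and KLK3 was at 0, in every group. At the same threshold the 1 luminal marker tested was higher in EloB KD (1.19 log2) and did not pass in EloC KD. Summed luminal markers lay between 7.85 and 11.7 TPM in EloB KD, and at or below 4.27 TPM in Control KD. Leukocyte markers were likewise under 1 TPM in 4 of 5 cases, and the remaining marker, CD68, is also expressed outside blood cells. Of 4 endothelial markers 2 were under 1 TPM in every group. Their sum lay between 32.5 and 46.9 TPM in EloB KD and between 28.6 and 43.7 TPM in EloC KD. In Control KD it lay between 40.04 and 64.7 TPM. Of the 3 tested, 0 were higher and 1 lower in EloB KD, and 0 passed in EloC KD. Summed fibroblast markers lay between 16.8 and 21.4 TPM in EloC KD, against 5.81 to 7.37 TPM in Control KD. Among the 4 tested, COL1A1 (1.99 log2) and LUM (1.82 log2) were higher in EloC KD, and PDGFRB (-1.09 log2) and COL1A2 (-0.70 log2) lower. In EloB KD 0 of the 4 were higher and 2 lower. The part of the luminal, endothelial and fibroblast markers in the results on Polycomb genes was not tested.

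Of the 35 Polycomb genes, 34 were read in both experiments and all 34 passed the filter on low values, a mean of at least 10 normalised counts over an experiment. EPOP (chr17:38671703-38675421, hg38), the member known to bind Elongin BC directly, was listed at 0 in all 18 libraries. In total 2200 genes were listed at 0 in all of them, and no level, limit or fold change is given for EPOP. In Control KD the highest member was PHC2, a Polyhomeotic protein of canonical PRC1, at 211 ± 15.7 TPM (SD, n = 3), with 3.98% of all genes above it. RBBP7, a histone-binding subunit that PRC2 shares with other complexes, followed at 166 ± 18.3 TPM and BAP1, the deubiquitinase, at 84.1 ± 10.4 TPM. Next came BMI1 at 72.7 ± 12.4, CBX6 at 64.6 ± 8.01, PHF19 at 57.2 ± 8.83 and CBX2 at 56.3 ± 3.16 TPM, neighbours whose differences lay within their SDs. At the low end stood PHF1 at 7.40 ± 0.468, YAF2 at 5.15 ± 0.356 and PHC1 at 1.31 ± 0.230 TPM.

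**Figure D1:**
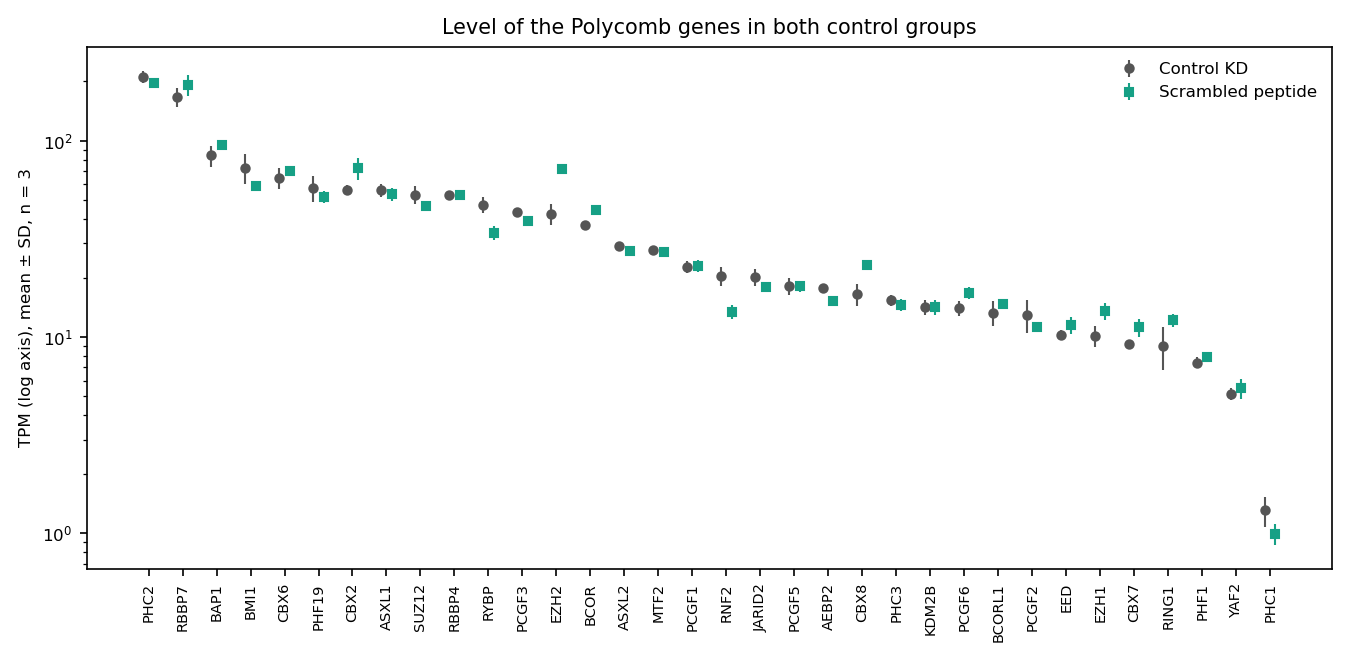
Levels of the 34 detected Polycomb genes in TPM (log axis, mean ± SD, n = 3), with circles for Control KD and squares for Scrambled peptide, ordered by Control KD. PHC2 and RBBP7 lie highest and PHC1 lowest in both groups, and EZH2 lies at 71.8 TPM with Scrambled peptide and 42.4 TPM in Control KD.

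In Control KD a single gene held most of the level in several subunit families. EZH2 made up 80.5% ± 3.86 of the summed TPM of EZH1 and EZH2 in Control KD, RNF2 made up 69.4% ± 6.63 of RING1 and RNF2, and RYBP made up 90.1% ± 0.526 of RYBP and YAF2. PHC2 supplied 92.6% ± 0.674 of the PHC sum. In the peptide experiment RNF2 and RING1 were closer, with RNF2 at 54.3% ± 2.91 with WT peptide, 51.3% ± 2.504 with Mutant peptide and 52.5% ± 1.31 with Scrambled peptide. The experiments differed in serum and in treatment, and their tables were normalised separately, so levels were not tested between them.

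Knockdown of either subunit changed a minority of the Polycomb genes, and 12 of them differed between the knockdowns. A gene is called changed here when its adjusted p, from limma, adjusted by Benjamini-Hochberg across the 13764 genes in the fit, was under 0.05. In EloB KD 8 of 34 members were called, 3 higher (MTF2, PCGF3 and BAP1) and 5 lower (BCOR, PCGF6, BMI1, CBX2 and KDM2B). Of all genes tested, 20.5% were called in EloB KD, 9.34% higher and 11.2% lower, so the share of 23.5% among the members was near the background. In EloC KD 8 of 34 members were called as well, 4 higher (MTF2, CBX2, BMI1 and PHF1) and 4 lower (CBX6, PHC2, RBBP4 and RYBP). The background in EloC KD was 42.5%, with 21.3% higher and 21.2% lower, and the same share of 23.5% of members was below it. In bulk RNA, fewer cells of a type and less RNA per cell cannot be told apart.

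The size of change was also modest for most members. The median absolute log2 fold change was 0.20 over the members in EloB KD, against 0.23 over all genes tested, and 0.22 in EloC KD, against 0.35. The knockdowns share the Control KD libraries, so the direct comparison between them carries the test of a difference. Between EloB KD and EloC KD 12 of 34 members were called, 5 higher and 7 lower in EloB KD. That share of 35.3% stood beside a background of 46.1%, with 22.3% higher and 23.8% lower. The 12 were EZH1, PHF1, MTF2, PCGF1, PCGF3, BMI1, PCGF6, CBX2, CBX6, CBX7, PHC2 and BCOR.

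**Figure D2:**
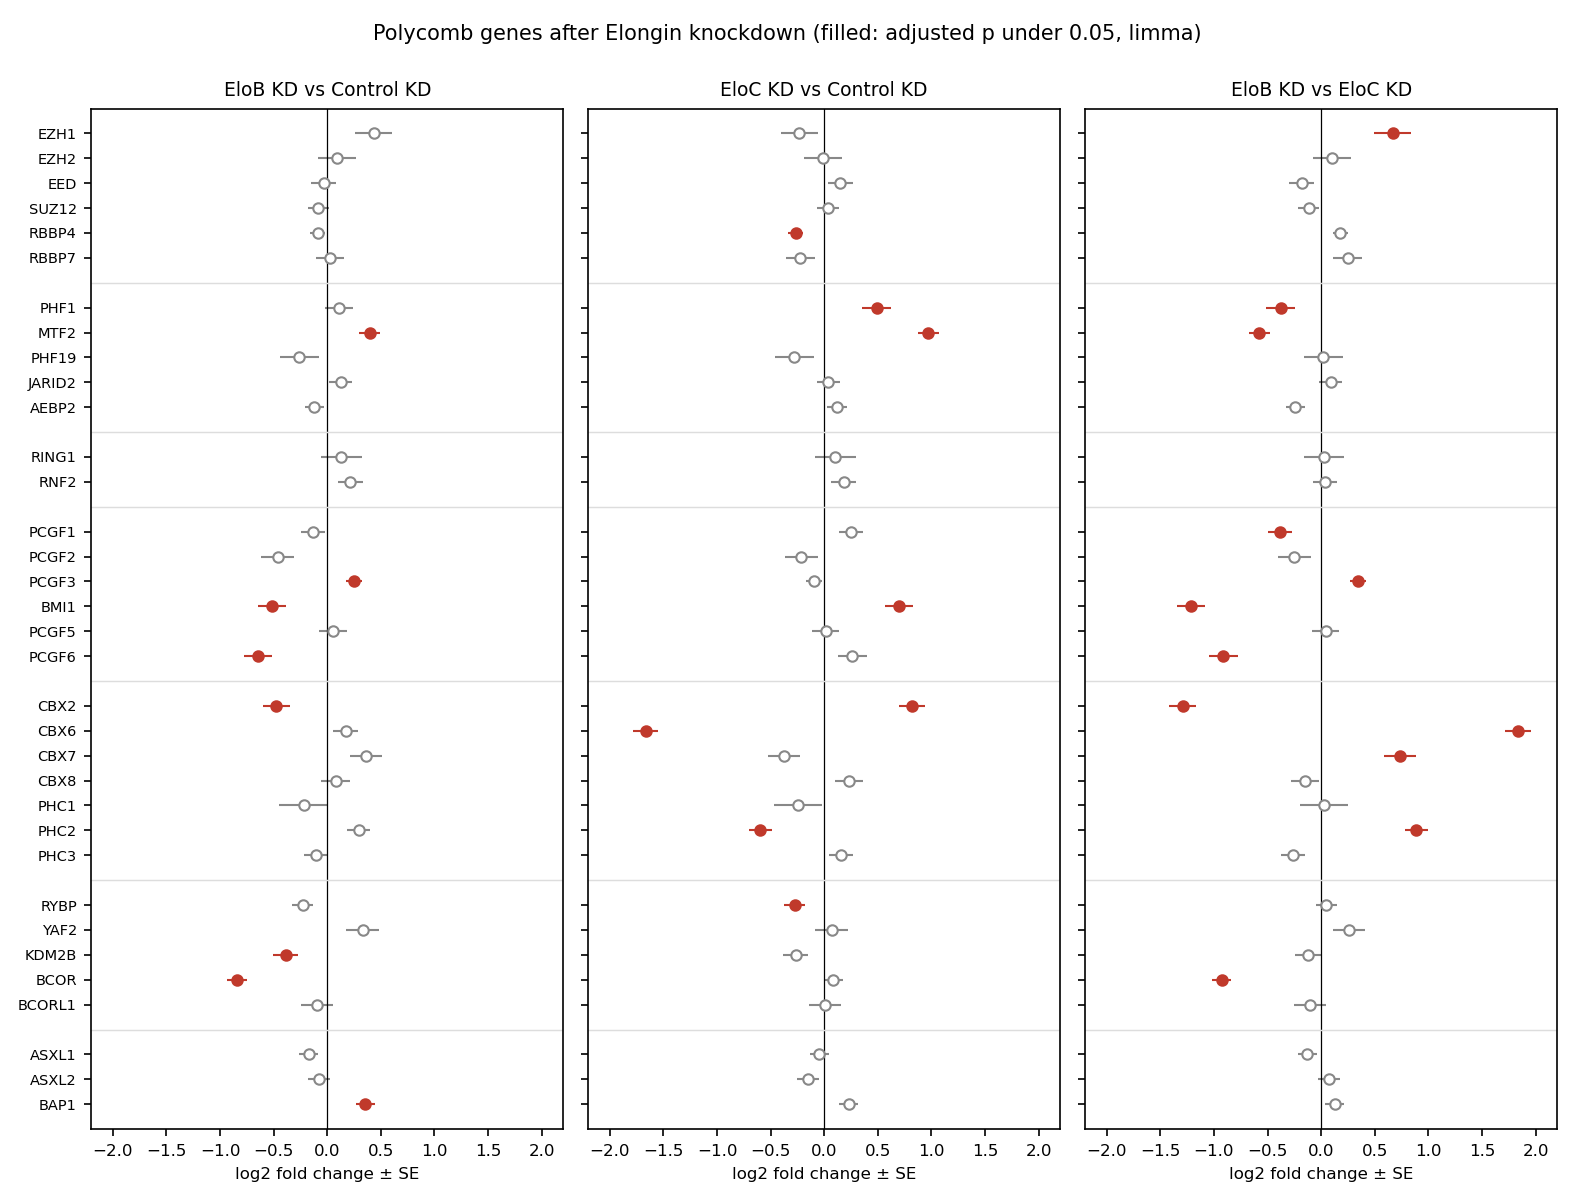
Log2 fold changes (limma, ± SE) of the 34 tested Polycomb genes, grouped by role, in EloB KD against Control KD, EloC KD against Control KD and EloB KD against EloC KD; filled points have an adjusted p under 0.05. Most core PRC2 and catalytic PRC1 genes lie near 0, while CBX6 reaches -1.67 in EloC KD and 1.84 in EloB KD against EloC KD.

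The number of calls depended on the replicate structure. Same-numbered libraries deviated together across groups, and a fit with the replicate number as a block called 14 of 34 members in EloB KD (background 36.3%), 14 in EloC KD (background 57.0%) and 16 between the knockdowns (background 59.4%). Members that this block adds are given beside their values. Leaving out single libraries left between 2 and 9 calls in EloB KD: 2 without EloB KD replicate 2, 4 without EloB KD replicate 1 or Control KD replicate 1, and 5 without Control KD replicate 2. The calls over all 13764 genes fell too. Without EloB KD replicate 2 they were 842 higher and 1143 lower, against 1285 and 1537 with all libraries. BCOR and PCGF6 were called in EloB KD, and CBX6, MTF2, CBX2, BMI1 and PHC2 in EloC KD, under all 20 alternatives.

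The core of PRC2 was not called in EloB KD and differed from Control KD by a single gene in EloC KD. EZH2, the main methyltransferase, had 1874, 2949.5 and 2932 normalised counts in EloB KD, 2257, 2173 and 2675 in EloC KD and 2128, 2316 and 2725 in Control KD. The groups overlapped, and the log2 fold change was 0.09 ± 0.17 in EloB KD (limma adjusted p = 0.753, 95% interval -0.30 to 0.48) and -0.01 ± 0.17 in EloC KD (limma adjusted p = 0.965, 95% interval -0.40 to 0.37). EloB KD replicate 1 was the lowest of the 9 libraries for EZH2, and it also had the lowest mean log2 level of 19 proliferation markers, -0.73 against -0.26 to 0.23 in Control KD, set to the Control KD mean. EZH1, the paralogue with weaker methyltransferase activity, had 1511, 1034 and 1065 normalised counts in EloB KD, 899, 668 and 694 in EloC KD and 1012, 845 and 793 in Control KD. Every EloB KD library lay above every EloC KD library, with replicate 1 of EloB KD highest, and the difference was 0.67 ± 0.17 log2 (limma adjusted p = 0.00985). Against Control KD, EZH1 was at 0.43 ± 0.17 log2 in EloB KD (limma adjusted p = 0.107, or 0.00346 with the replicate block) and at -0.23 ± 0.17 log2 in EloC KD (limma adjusted p = 0.303, or 0.0388 with the block). The part of proliferation in these values was not tested. Of the 19 markers 0 were called in EloB KD, beside 20.5% of all genes tested. In EloC KD 0 were higher and 5 lower, among them MCM3 at -0.81 and MKI67 at -0.96 log2. That share of 26.3% stood beside 42.5% of all genes called in EloC KD, with 21.2% lower.

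Changes among the histone-binding and scaffold subunits were small. RBBP4, a histone-binding protein of PRC2 and of deacetylase complexes, had 5674, 5912 and 5946 normalised counts in EloB KD, 5327, 5062 and 5089 in EloC KD and 6292, 6224 and 6111 in Control KD. All EloC KD libraries were below the other 6, and RBBP4 was lower in EloC KD than in Control KD, at a log2 fold change of -0.27 ± 0.07 (limma adjusted p = 0.0111). Between the knockdowns RBBP4 missed the threshold (limma adjusted p = 0.0575) and passed it with the replicate block (0.0311), with TMM (0.0472) or quantile scaling (0.00595), by edgeR (0.0458) and by DESeq2 (0.00977). Its paralogue RBBP7 had 12509, 18339 and 16287 normalised counts in EloB KD, 12146, 13399.8 and 13718 in EloC KD and 13787, 16435 and 15649.6 in Control KD. The EloC KD libraries were the lowest apart from EloB KD replicate 1, and in EloC KD RBBP7 passed with the block alone among the alternatives (limma adjusted p = 0.203, or 0.0383 with it). Between the knockdowns RBBP7 missed the threshold (limma adjusted p = 0.154) and passed with the block (0.0234), with quantile scaling (0.0252) or without EloB KD replicate 1 (0.0137). EED, which binds the methyl mark, and SUZ12, the scaffold of PRC2, were called in neither knockdown, with 95% intervals in EloC KD of -0.11 to 0.41 and -0.19 to 0.26 log2. About 18.0% of the exon bases of RBBP4 overlap SYNC on the other strand, and the strand setting of the authors' counting is not given in the sources used here. Other members overlap genes on the other strand too, among them PCGF2 by 32.7% (CISD3), PHC1 by 18.1% (M6PR) and CBX7 by 17.9% (AL031846.2).

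Among the proteins that guide PRC2, the Polycomb-like gene MTF2 rose in both knockdowns. MTF2, which binds unmethylated CpG-rich DNA, had 2529, 2969.7 and 2593 normalised counts in EloB KD, 3952, 4387 and 3733 in EloC KD and 2155, 1935 and 2053 in Control KD. The 3 groups did not overlap: EloC KD was highest and Control KD lowest. The rise was 0.97 ± 0.10 log2 in EloC KD (limma adjusted p = 5.55e-05) and 0.39 ± 0.10 log2 in EloB KD (limma adjusted p = 0.0175), and EloB KD was below EloC KD (-0.58 ± 0.10 log2, limma adjusted p = 0.000848). The EloB KD call was lost without Control KD replicate 2 (adjusted p = 0.0673) and likewise without EloB KD replicate 2 (adjusted p = 0.0678). PHF1, a second Polycomb-like protein, had 386, 336 and 354 normalised counts in EloB KD, 515, 488 and 402 in EloC KD and 318, 344 and 332 in Control KD. EloC KD lay above both other groups, by 0.49 ± 0.13 log2 over Control KD (limma adjusted p = 0.0129), a call lost without EloC KD replicate 1 (adjusted p = 0.0537). Between the knockdowns the PHF1 log2 fold change of -0.38 ± 0.13 (limma adjusted p = 0.0382) was lost without Control KD replicate 2, EloB KD replicate 2 or 3, or EloC KD replicate 1 or 2 (adjusted p between 0.0524 and 0.133).

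PHF19, the third Polycomb-like protein and the most abundant in Control KD, had 3334, 4036 and 4700.4 normalised counts in EloB KD, 4092, 3071 and 4832 in EloC KD and 4219, 4528 and 5683 in Control KD. The groups overlapped, with log2 fold changes of -0.26 ± 0.18 in EloB KD (limma adjusted p = 0.342) and -0.28 ± 0.18 in EloC KD (limma adjusted p = 0.235). As shares of the summed TPM of the 3 Polycomb-like genes, MTF2 made up 39.7% ± 3.63 in EloB KD, 48.7% ± 6.35 in EloC KD and 30.2% ± 3.37 in Control KD (SD, n = 3). PHF19 made up 51.6% ± 4.41, 42.0% ± 7.49 and 61.7% ± 3.87 of the same sums in EloB KD, EloC KD and Control KD. These shares are descriptions and carry no test. JARID2 and AEBP2, which define the alternative PRC2 assembly, were called in neither knockdown, and AEBP2 missed the threshold between the knockdowns (limma adjusted p = 0.0513) and was lower in EloB KD with the replicate block (0.0227), with a mean of at least 50 (0.0478), by DESeq2 (0.0265) or without Control KD replicate 1 (0.0485).

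The catalytic subunits of PRC1 were not called in any comparison. RNF2, the main H2A ubiquitin ligase, had log2 fold changes of 0.22 ± 0.11 in EloB KD (limma adjusted p = 0.214) and 0.18 ± 0.11 in EloC KD (limma adjusted p = 0.226). RING1 had log2 fold changes of 0.13 ± 0.19 and 0.10 ± 0.19 in EloB KD and EloC KD, each with an adjusted p above 0.05.

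Their PCGF partners, which define the type of PRC1, were lower or higher gene by gene. BMI1, the PCGF protein of canonical PRC1 and a regulator of stem cell renewal, had 2639, 2644 and 2784 normalised counts in EloB KD, 6800.1, 5815 and 6150.1 in EloC KD and 4614, 3124 and 3954 in Control KD. Every EloC KD library was above and every EloB KD library below the range of Control KD. BMI1 rose by 0.70 ± 0.13 log2 in EloC KD (limma adjusted p = 0.00167), was lower in EloB KD with a log2 fold change of -0.52 ± 0.13 (limma adjusted p = 0.0182), and had a log2 fold change of -1.22 ± 0.13 between the knockdowns (limma adjusted p = 5.14e-05). The EloB KD call was lost without Control KD replicate 1 (adjusted p = 0.0533), EloB KD replicate 1 (0.0527) or EloB KD replicate 2 (0.0522). About 23.3% of the exon bases of BMI1 (chr10:22321211-22331484, hg38) are shared with the readthrough gene COMMD3-BMI1 on the same strand, so its count is uncertain there. PCGF6, which belongs to a variant PRC1 with germline gene targets in mouse, had 334, 298 and 379 normalised counts in EloB KD, 652, 589.5 and 654 in EloC KD and 513, 481 and 588 in Control KD. The 3 groups did not overlap, and PCGF6 was lower in EloB KD than in Control KD, at a log2 fold change of -0.65 ± 0.13 (limma adjusted p = 0.00721). In EloC KD the log2 fold change of PCGF6 was 0.26 ± 0.13 (limma adjusted p = 0.135, or 0.0360 with the replicate block), and between the knockdowns it was -0.91 ± 0.13 (limma adjusted p = 0.000346).

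PCGF3, of another variant PRC1, had 4828, 4841 and 4574 normalised counts in EloB KD, 3836, 3684 and 3686 in EloC KD and 4057, 4004 and 3923 in Control KD. EloB KD was the highest group and EloC KD the lowest, with no overlap. In EloB KD, PCGF3 exceeded EloC KD by 0.35 ± 0.07 log2 (limma adjusted p = 0.00285) and Control KD by 0.25 ± 0.07 log2 (limma adjusted p = 0.0334). The call against Control KD held without EloC KD replicate 2 or 3 and was lost without any other single library (adjusted p between 0.0518 and 0.102). PCGF1, which joins BCOR and KDM2B, was lower in EloB KD than in EloC KD, at a log2 fold change of -0.38 ± 0.11 (limma adjusted p = 0.0166), a call lost without EloB KD replicate 2 (0.0554), EloC KD replicate 1 (0.0561) or EloC KD replicate 2 (0.0529). PCGF2, the paralogue of BMI1 in canonical PRC1, had 420.2, 358 and 445 normalised counts in EloB KD, 489.8, 480.2 and 479 in EloC KD and 679, 566 and 457 in Control KD. All EloB KD libraries were below Control KD, yet the log2 fold change of -0.46 ± 0.15 missed the threshold (limma adjusted p = 0.0584) and passed with the replicate block (0.0232), with quantile scaling (0.0469), by DESeq2 (0.0223) or without Control KD replicate 3 (0.0218). PCGF5 overlapped across the groups. By TPM, BMI1 made up 31.5% ± 0.894 of the summed PCGF genes in EloB KD, 50.7% ± 1.74 in EloC KD and 39.4% ± 3.99 in Control KD, while the sum itself was 169.9 ± 4.88, 223 ± 15.7 and 184 ± 14.5 TPM in the same groups.

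The largest fold change of a member fell on CBX6, in canonical PRC1. CBX6, a chromodomain reader of the methyl mark, had 7254, 7515 and 6982 normalised counts in EloB KD, 1997, 1769 and 2363 in EloC KD and 5644, 6774 and 6986 in Control KD. The 3 EloC KD libraries stood far below all others, and CBX6 was 3.17-fold lower in EloC KD than in Control KD (-1.67 ± 0.12 log2, limma adjusted p = 9.96e-06). EloB KD overlapped Control KD (0.17 ± 0.12 log2, limma adjusted p = 0.342) and was above EloC KD by 1.84 ± 0.12 log2 (limma adjusted p = 4.32e-06). CBX2, a CBX protein that can compact chromatin, had 3283, 2376 and 3045 normalised counts in EloB KD, 7381, 6278 and 7532 in EloC KD and 3812, 3942 and 4237 in Control KD. EloC KD was the highest group and EloB KD the lowest, with no overlap. CBX2 rose by 0.82 ± 0.12 log2 in EloC KD (limma adjusted p = 0.000537) and was lower in EloB KD with a log2 fold change of -0.47 ± 0.12 (limma adjusted p = 0.0228), with -1.29 ± 0.12 log2 between the knockdowns (limma adjusted p = 3.19e-05). The EloB KD call was lost without Control KD replicate 2 (0.0572), Control KD replicate 3 (0.0659) or EloB KD replicate 2 (0.0678). CBX8, the gene beside CBX2 on chromosome 17, overlapped across the groups and was called in neither knockdown.

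CBX7, the CBX reader linked to repression of the CDKN2A locus, had 1412, 983 and 969 normalised counts in EloB KD, 732, 600.3 and 661 in EloC KD and 852, 845 and 879 in Control KD. The groups did not overlap, and EloB KD exceeded EloC KD by 0.74 ± 0.15 log2 (limma adjusted p = 0.00251). Against Control KD in EloB KD, at 0.36 ± 0.15 log2, it passed with the replicate block alone among the alternatives (limma adjusted p = 0.115, or 0.0321 with the block). In EloC KD, at -0.37 ± 0.15 log2, it missed the threshold (limma adjusted p = 0.0666) and passed with the block (0.0181), with the 2 groups compared alone (0.0322) or without EloB KD replicate 1 (0.0175). PHC2, which polymerises through its SAM domain, had 17917, 14724 and 15669 normalised counts in EloB KD, 9201, 7568 and 9347 in EloC KD and 12329.8, 13659 and 13312 in Control KD. EloB KD was highest and EloC KD lowest without overlap. PHC2 was lower in EloC KD than in Control KD, at a log2 fold change of -0.59 ± 0.11 (limma adjusted p = 0.00142) and EloB KD exceeded EloC KD by 0.89 ± 0.11 log2 (limma adjusted p = 0.000108). In EloB KD against Control KD its log2 fold change of 0.29 ± 0.11 missed the threshold (limma adjusted p = 0.0790) and passed with the block (0.0320), with quantile scaling (0.0399), by DESeq2 (0.0454) or without EloC KD replicate 2 (0.0495). PHC3 was lower in EloB KD than in EloC KD only with the block (adjusted p = 0.0103) or without EloC KD replicate 3 (0.0183), and PHC1 overlapped across the groups.

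**Figure D3:**
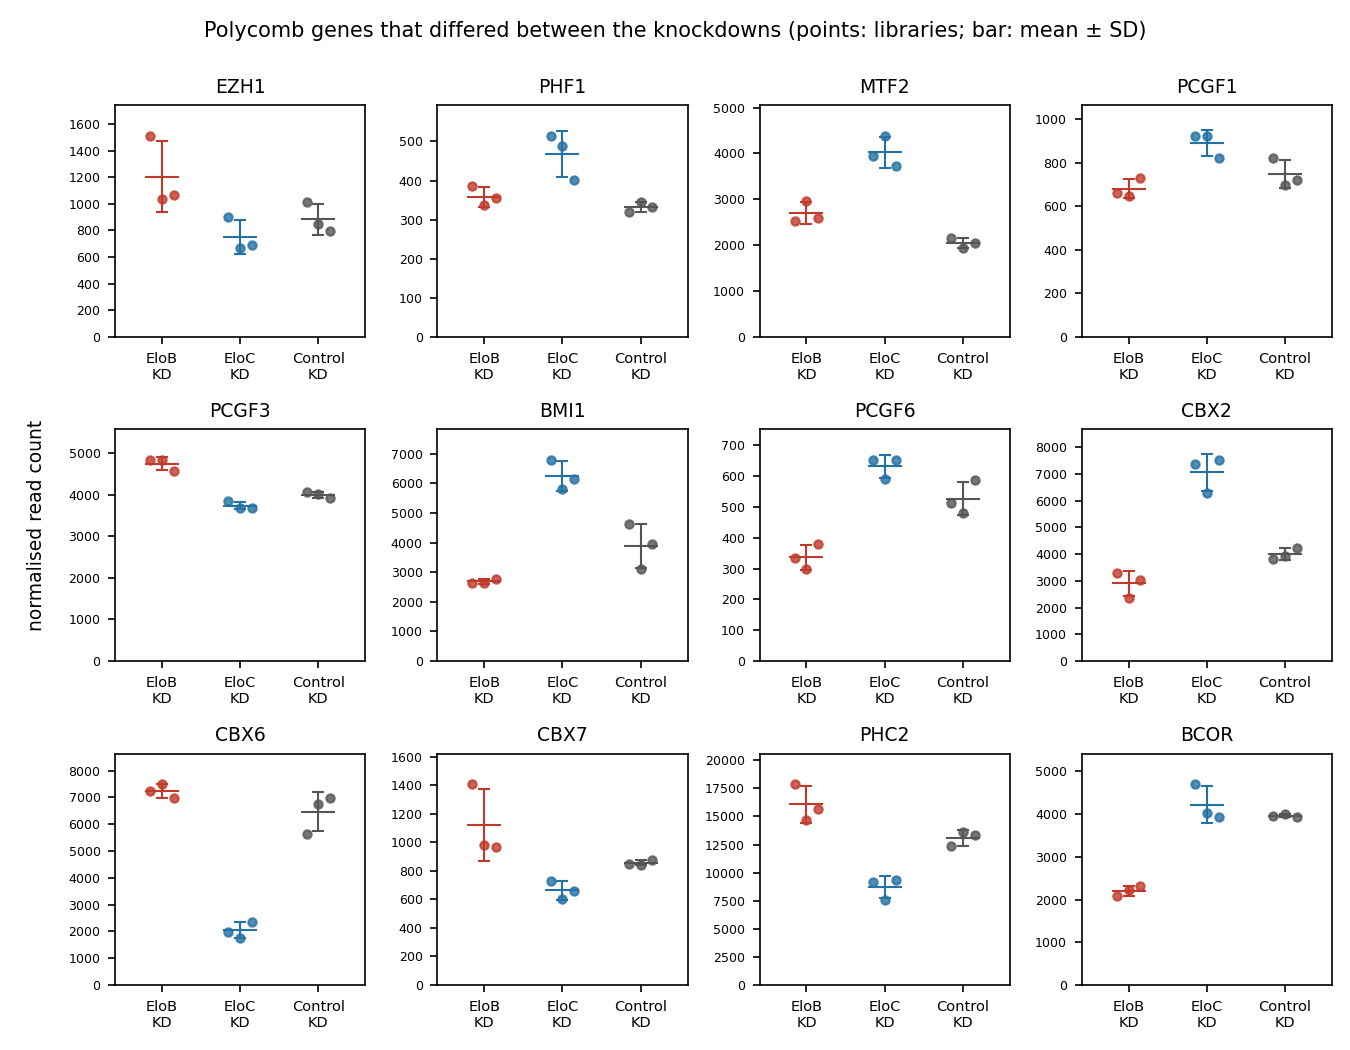
Normalised read counts of the 12 Polycomb genes called between the knockdowns, with a point for each library and the mean ± SD (n = 3) for each knockdown and Control KD. CBX6 and PHC2 are lowest in EloC KD, CBX2 and BMI1 are highest there, and BCOR is lowest in EloB KD.

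In level per exon length, the makeup of the 4 CBX genes differed between the groups while their sums overlapped. CBX2 made up 28.6% ± 3.17 of the summed TPM in EloB KD, 68.0% ± 0.907 in EloC KD and 38.5% ± 1.45 in Control KD (SD, n = 3). CBX6 made up 50.9% ± 4.38 in EloB KD, 13.9% ± 0.900 in EloC KD and 44.0% ± 1.77 in Control KD. CBX2 was thus the leading gene of the 4 in every EloC KD library and CBX6 in every library of the other groups. The sum of the 4 genes was 152 ± 12.9 TPM in EloB KD, 141 ± 14.6 in EloC KD and 147 ± 13.2 in Control KD. The PHC sum followed PHC2, at 293 ± 33.2, 153 ± 15.6 and 228 ± 15.9 TPM in EloB KD, EloC KD and Control KD.

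**Figure D4:**
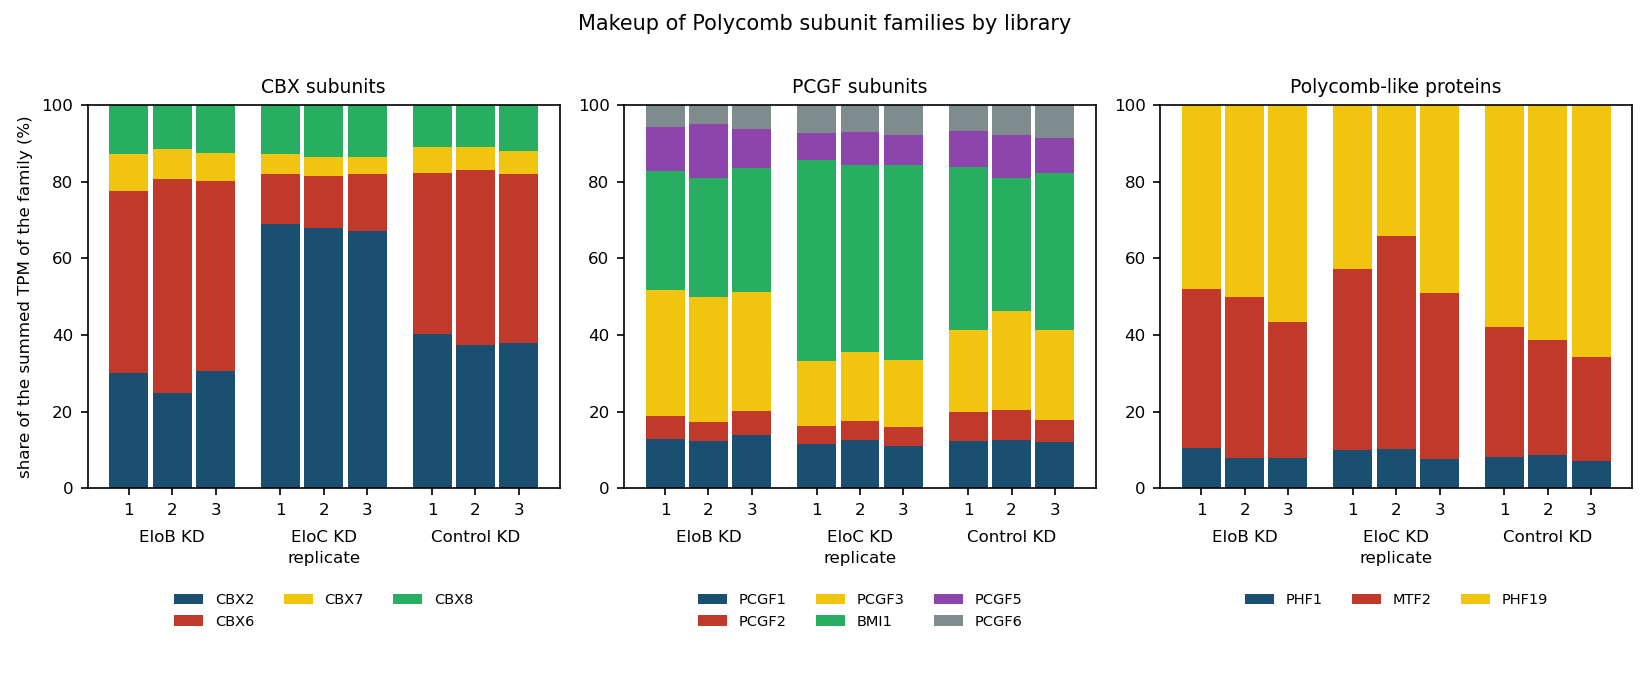
Shares of the summed TPM (%) of each gene in the CBX, PCGF and Polycomb-like families, with a stacked bar for each library of the knockdowns and of Control KD. CBX2 is the largest CBX segment in the 3 EloC KD libraries and CBX6 in the other 6, and BMI1 is the largest PCGF segment in EloC KD and Control KD.

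In variant PRC1 the largest change was a fall of BCOR in EloB KD. BCOR, the corepressor that ties PCGF1 to KDM2B, had 2085, 2216 and 2322 normalised counts in EloB KD, 4710.2, 4017 and 3919.7 in EloC KD and 3944, 4008 and 3930.04 in Control KD. EloB KD was below every library of both other groups, and EloC KD overlapped Control KD. The log2 fold change was -0.84 ± 0.09 in EloB KD (limma adjusted p = 0.000245) and 0.09 ± 0.09 in EloC KD (limma adjusted p = 0.475), with -0.93 ± 0.09 between the knockdowns (limma adjusted p = 3.39e-05). KDM2B, the CpG-binding demethylase of the same complex, had 1802, 1775 and 1940.2 normalised counts in EloB KD, 2137, 1713 and 2190.4 in EloC KD and 2399, 2168 and 2683 in Control KD. All EloB KD libraries were below Control KD, and EloC KD overlapped it at its lower end. KDM2B was lower in EloB KD, at a log2 fold change of -0.39 ± 0.12 (limma adjusted p = 0.0402); the call held without Control KD replicate 2, EloC KD replicate 2 or EloC KD replicate 3 and was lost without any other library (adjusted p between 0.0530 and 0.121). In EloC KD it passed only with the replicate block (-0.27 ± 0.12 log2, limma adjusted p = 0.0920, or 0.0145 with it).

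RYBP, which links RING proteins to variant PRC1 and binds ubiquitinated H2A, had 3536, 3826 and 3469 normalised counts in EloB KD, 3687, 3640.2 and 3161 in EloC KD and 4643, 4219 and 3855 in Control KD. Both knockdowns lay below Control KD without overlap. RYBP was lower in EloC KD, at a log2 fold change of -0.28 ± 0.10 (limma adjusted p = 0.0424), a call that held when Control KD replicate 3 or EloB KD replicate 1 was left out and was lost without any other single library (adjusted p between 0.0503 and 0.146). In EloB KD the log2 fold change of -0.23 ± 0.10 passed only with the block (limma adjusted p = 0.129, or 0.0320 with it). Its paralogue YAF2 had a log2 fold change of 0.33 ± 0.15 in EloB KD, which also passed only with the block (0.156, or 0.0321 with it), and without EloC KD replicate 2 it differed between the knockdowns (0.0481). BCORL1, the BCOR paralogue, overlapped across the groups. In PR-DUB, BAP1 had 6829.98, 6747 and 6641 normalised counts in EloB KD, 6008, 6239.5 and 6271 in EloC KD and 4626, 5567 and 5691 in Control KD. Both knockdowns were above Control KD without overlap. BAP1 rose by 0.35 ± 0.09 log2 in EloB KD (limma adjusted p = 0.0195), a call lost without Control KD replicate 1 (0.0541), EloB KD replicate 1 (0.0514) or EloB KD replicate 2 (0.0547). In EloC KD it missed the threshold (limma adjusted p = 0.0638) and passed with the block (0.0276), by DESeq2 (0.0493) or without Control KD replicate 3 (0.0449). ASXL1 and ASXL2, the cofactors that activate BAP1, were called in neither knockdown.

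The promoters of 4 members that carry the knockdown results are shown, BMI1, CBX6, PHC2 and BCOR, because each held the E-box CACGTG, the motif with the largest ratio between members and all promoters among those found in more than 1 member, chosen after these shares were seen. They run from 250 bases before to 50 bases after the first listed start, from RefSeq on GRCh38.p14, 5′ to 3′ on the strand of the gene, with the E-box in capitals. BMI1 lies at chr10:22320849-22321148, plus strand, CBX6 at chr22:38872167-38872466, minus strand, PHC2 at chr1:33431046-33431345, minus strand, and BCOR at chrX:40177228-40177527, minus strand.
BMI1: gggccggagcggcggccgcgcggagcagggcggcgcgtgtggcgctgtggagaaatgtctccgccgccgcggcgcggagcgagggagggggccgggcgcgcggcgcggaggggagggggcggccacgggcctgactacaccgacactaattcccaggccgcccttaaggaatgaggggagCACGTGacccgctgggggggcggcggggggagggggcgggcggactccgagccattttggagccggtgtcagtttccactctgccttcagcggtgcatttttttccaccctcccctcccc
CBX6: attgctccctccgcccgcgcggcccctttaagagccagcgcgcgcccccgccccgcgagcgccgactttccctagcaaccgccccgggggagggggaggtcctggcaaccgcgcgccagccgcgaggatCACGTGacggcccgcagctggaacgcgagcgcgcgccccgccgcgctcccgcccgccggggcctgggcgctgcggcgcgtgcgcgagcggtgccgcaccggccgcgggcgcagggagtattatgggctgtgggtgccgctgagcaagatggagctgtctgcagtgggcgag
PHC2: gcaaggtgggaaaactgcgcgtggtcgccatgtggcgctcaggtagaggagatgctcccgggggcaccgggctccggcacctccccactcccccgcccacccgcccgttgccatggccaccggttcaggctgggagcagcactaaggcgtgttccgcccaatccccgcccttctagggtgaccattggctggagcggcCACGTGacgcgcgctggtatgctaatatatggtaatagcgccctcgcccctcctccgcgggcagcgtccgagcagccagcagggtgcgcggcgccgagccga
BCOR: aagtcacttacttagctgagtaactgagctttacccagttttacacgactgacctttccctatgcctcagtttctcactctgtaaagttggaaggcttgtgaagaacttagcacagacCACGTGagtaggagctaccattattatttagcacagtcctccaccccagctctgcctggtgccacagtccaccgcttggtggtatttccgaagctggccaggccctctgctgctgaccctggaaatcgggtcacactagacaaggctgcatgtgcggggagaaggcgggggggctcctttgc
The E-box began 70 bases before the start in BMI1, 121 in CBX6, 52 in PHC2 and 132 in BCOR, and none overlapped another motif searched. Promoters of 31 of the 35 members were in the table, and CBX2, CBX8, BAP1 and EPOP had no entry. The E-box was found in 7 of 31 member promoters (22.6%), the others being PHC3, RBBP4 and YAF2, against 7.43% of 27305 promoters of the same length. Their directions differed: CBX6, PHC2 and RBBP4 were lower and BMI1 higher in EloC KD, and BCOR was lower in EloB KD. All motifs were searched on both strands. CCAAT was found in 13 (41.9%, against 35.7% of all promoters), GGGGCGGGG in 9 (29.03%, against 15.99%) and TATAAA in 3 (9.68%, against 12.0%). CCGGAAGT in 1 (against 4.44% of all promoters) and TTTGGCGC in 1, EZH2 (against 0.659%), while TGACGTCA (1.98% of all promoters) and TTTCGCGC (0.546%) were in 0. The member promoters held a median of 30 CpG dinucleotides (2 to 55), against 14 over all promoters. A match is a description of these letters and carries no statement on a factor.

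Genes that work with or against the Polycomb complexes, in lists chosen with earlier results of these data known, are given by their counts, to be read against the 20.5% of all genes called in EloB KD and 42.5% in EloC KD. Of 19 tested partners of PRC1, 2 were higher and 3 lower in EloB KD, among them CBX3, a heterochromatin protein (-0.35 ± 0.09 log2, limma adjusted p = 0.0204), and the deacetylase HDAC1 (-0.45 ± 0.12 log2, limma adjusted p = 0.0237). In EloC KD 4 were higher and 5 lower: SCML2, a PRC1-associated protein, rose by 0.91 ± 0.14 log2 (limma adjusted p = 0.000683), and SCMH1, its relative, was lower, at a log2 fold change of -0.76 ± 0.12 (limma adjusted p = 0.000597). Of 9 tested partners of PRC2 and PR-DUB, 0 were called in EloB KD, and 2 were higher and 1 lower in EloC KD, with HCFC1, which BAP1 binds, at 0.57 ± 0.15 log2 (limma adjusted p = 0.0107) and FOXK1, a forkhead partner of BAP1, at -0.46 ± 0.10 log2 (limma adjusted p = 0.00333). Of 4 enzymes that remove the marks, KDM6B, an H3K27 demethylase, rose by 0.92 ± 0.13 log2 in EloC KD (limma adjusted p = 0.000385), USP16, an H2A deubiquitinase, was lower, at a log2 fold change of -0.45 ± 0.09 (limma adjusted p = 0.00198), and 0 were called in EloB KD. Of 16 genes for methyltransferases that oppose Polycomb or for subunits of their complexes, 0 were higher and 4 lower in EloB KD. The 4 were NSD1, NSD3, KMT2A and the subunit gene MEN1, between -0.66 and -0.44 log2. In EloC KD 3 were higher and 4 lower, with DOT1L, the H3K79 methyltransferase, at 0.87 ± 0.17 log2 (limma adjusted p = 0.00205).

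Developmental genes known as Polycomb targets in other cells were described in the same way. Of 44 such genes 28 passed the filter. In EloC KD 8 were higher and 3 lower, a share of 39.3% beside the 42.5% of all genes called, and the median log2 fold change of the 28 was 0.15, against 0.01 over all genes tested. TBX3 rose by 1.01 ± 0.11 log2 (limma adjusted p = 8.11e-05), GATA6 by 0.80 ± 0.11 log2 (limma adjusted p = 0.000325) and GATA3 by 0.97 ± 0.14 log2 (limma adjusted p = 0.000473), all transcription factors of cell fate. CDKN2B, a cell cycle inhibitor at a locus that Polycomb represses, was lower, at a log2 fold change of -1.24 ± 0.14 (limma adjusted p = 9.46e-05). In EloB KD 2 were higher and 4 lower (21.4%, beside 20.5% of all genes) with a median of 0.05, against 0.00 over all genes tested, among them DLX1, a homeobox gene, at -0.91 ± 0.11 log2 (limma adjusted p = 0.000404) and CDKN2B again at -0.57 ± 0.14 log2 (limma adjusted p = 0.0159). Of 9 tested genes reported as repressed by EZH2 in cancer, 0 were higher and 3 lower in EloB KD (33.3%, beside 20.5% of all genes), led by PEBP1, a kinase inhibitor (-0.89 ± 0.14 log2, limma adjusted p = 0.00173). In EloC KD 3 were higher and 3 lower (66.7%, beside 42.5% of all genes): SLIT2, an axon guidance ligand, rose by 1.86 ± 0.16 log2 (limma adjusted p = 2.57e-05), and CDH1, which encodes E-cadherin, was lower, at a log2 fold change of -2.48 ± 0.37 (limma adjusted p = 0.000500).

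The peptides left the Polycomb genes nearly as they were, apart from PHF19. With WT peptide PHF19 had 4062, 4435 and 4338 normalised counts, with Mutant peptide 3359.9, 3668 and 3535 and with Scrambled peptide 2957, 2879 and 3224. The 3 groups did not overlap, with WT peptide highest and Scrambled peptide lowest. PHF19 rose by 0.50 ± 0.06 log2, or 1.42-fold, with WT peptide against Scrambled peptide (limma adjusted p = 0.00328, and between 1.07e-11 and 0.0240 over 20 alternatives). It was the 1 member called of 34 (2.94%), against a background of 1.43% called in either direction and 0.839% higher. Among the Polycomb-like genes its share of the summed TPM was 67.5% ± 0.839 with WT peptide, 62.3% ± 0.712 with Mutant peptide and 59.6% ± 1.27 with Scrambled peptide (SD, n = 3). With Mutant peptide its log2 fold change against Scrambled peptide was 0.22 ± 0.06 (limma adjusted p = 0.240, or 0.00406 with the replicate block), and WT peptide was above Mutant peptide by 0.28 ± 0.06 log2 (limma adjusted p = 0.323, or 0.00176 with the block).

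No Polycomb gene was called by limma with Mutant peptide against Scrambled peptide, or with WT peptide against Mutant peptide, where the background was 0% as well. At an unadjusted p under 0.05, 1142 of all genes passed with Mutant peptide against Scrambled peptide and 898 with WT peptide against Mutant peptide. On the recovered reads edgeR called 0 members in both, where it called 0 of all 13105 genes. DESeq2 called 0 members with Mutant peptide against Scrambled peptide, where 81 of all genes were higher and 103 lower. Between WT and Mutant peptide it called only PHF19 (DESeq2 adjusted p = 0.00605), where 47 of all genes were higher and 16 lower. The replicate block, under which 16.2%, 8.30% and 4.09% of all genes were called in WT against Scrambled, Mutant against Scrambled and WT against Mutant peptide, added small changes. With it EZH2 was higher with WT peptide (0.13 ± 0.05 log2, block adjusted p = 0.0215) and with Mutant peptide (0.14 ± 0.05 log2, block adjusted p = 0.0240) than with Scrambled peptide. RBBP7 was likewise higher with both, at block adjusted p values of 0.0292 with WT peptide and 0.0129 with Mutant peptide. With WT peptide CBX7 (0.00267), BCOR (0.0249) and BCORL1 (0.0250) were lower than with Scrambled peptide in that fit, at log2 fold changes of -0.30, -0.13 and -0.20. Between WT and Mutant peptide the block also called BMI1 higher (0.0464) and CBX7 lower (0.0304).

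**Figure D5:**
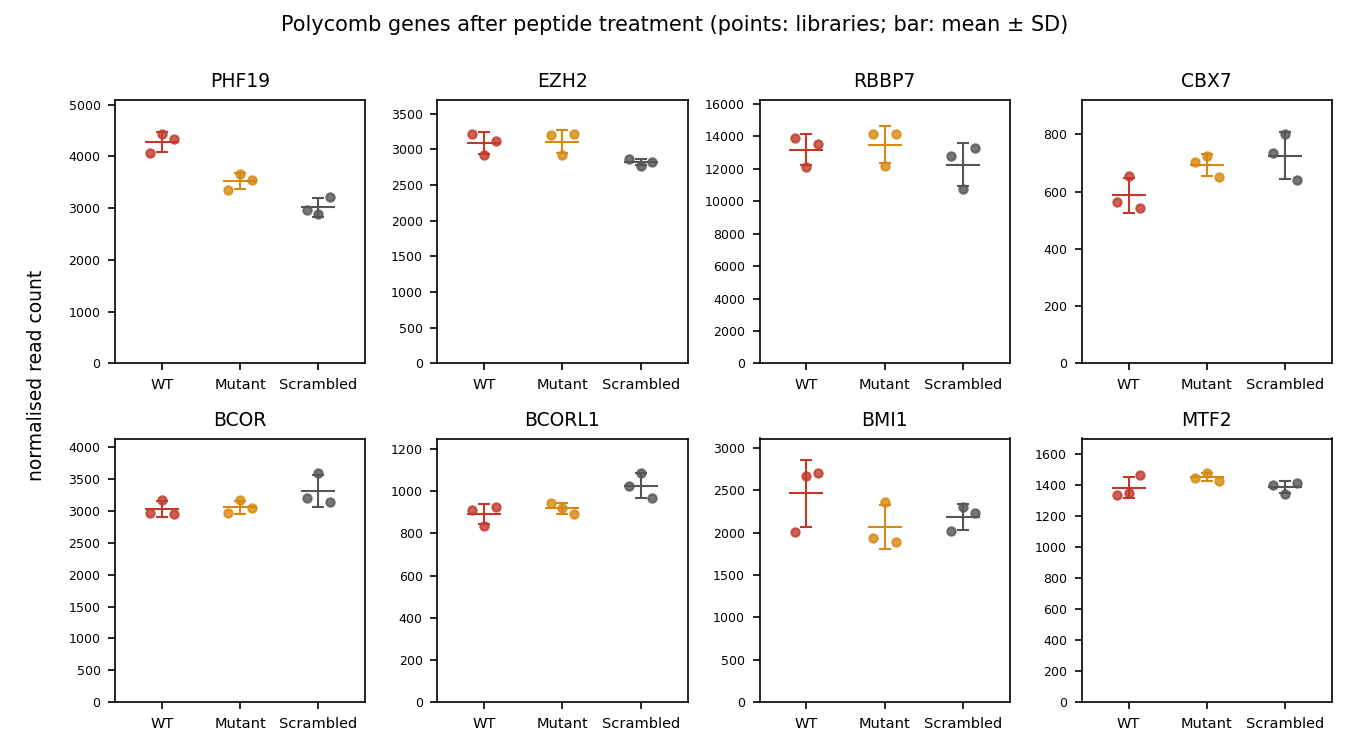
Normalised read counts of 8 Polycomb genes with WT, Mutant and Scrambled peptide, with a point for each library and the mean ± SD (n = 3). PHF19 steps down across WT, Mutant and Scrambled peptide without overlap, whereas BMI1 and MTF2, both called in the knockdowns, overlap between WT and Scrambled peptide.

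None of the members called in a knockdown against Control KD was called by limma with WT peptide against Scrambled peptide, where 1.43% of all genes were. CBX2, MTF2, BMI1 and PHC2 had log2 fold changes of 0.01, 0.00, 0.16 and 0.02 with WT peptide, and none was called by limma. CBX6 lay below Scrambled peptide in all 3 WT peptide libraries, at -0.08 ± 0.04 log2 (limma adjusted p = 0.436). Proliferation markers moved with the same contrast: 7 of 19 were higher and 1 lower with WT peptide (42.1%, beside 1.43% of all genes tested). Among them CCNB1 rose by 0.87 ± 0.07 log2 (limma adjusted p = 0.00150). The mean log2 level of the 19 markers, relative to the Scrambled peptide mean, lay between 0.13 and 0.22 with WT peptide. It lay between 0.06 and 0.17 with Mutant peptide and between -0.08 and 0.04 with Scrambled peptide. The part of these markers in the PHF19 result was not tested. Of the developmental Polycomb targets, 0 of 28 were called with either peptide against Scrambled peptide by limma.

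In the authors' deposited table of each comparison, every member called here was called too, with the same direction of the deposited log2 fold change. In both comparisons against Control KD the deposited statistic of the members has the opposite sign to that fold change. BCOR in EloB KD, for example, has -0.83 log2 and a statistic of 8.31. These were 8 of 8 in EloB KD, 8 of 8 in EloC KD, 12 of 12 between the knockdowns and 1 of 1 with WT peptide. The authors called 9 members in EloB KD, adding PCGF2, and 14 between the knockdowns, adding AEBP2 and RBBP4. Their tables come from the same libraries, so the agreement is not an independent test.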

How the data were processed

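RNA of PC3 cells was sequenced from 18 libraries in 6 groups of 3, prepared with a stranded mRNA kit per the labels' protocols. The submitters' processing notes name hg38, featureCounts and DESeq2, without versions. For each experiment the authors deposited a table with a signal per gene and library, the read count normalised by DESeq2. From their own comparisons the authors deposited, per gene, the log2 fold change, the statistic (a score) and the p-value of DESeq2, raw and adjusted, and other columns not used here. Such a table for the mutant peptide was not analysed here. Dividing by the smallest step of each library gave whole reads for 100% of the values, within 0.05 reads. Per-sample columns left unused numbered 0.

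Log2 of the normalised count plus 1 was fitted with limma 3.58.1 in R 4.3.3, with an intensity trend, keeping genes whose mean over an experiment reached 10 (13764 and 13105 genes). The 3 groups of an experiment shared an estimate of the spread, the tests were 2-sided, and Benjamini-Hochberg adjustment ran over all genes tested, with a threshold of 0.05. Log2 fold changes are on the log2(value + 1) scale. An exact permutation test of 3 libraries against 3 cannot go below 0.1 and was not used. edgeR 4.0.16 and DESeq2 1.42.0 on the recovered reads were alternatives. The fit was tested on simulated data with known changes.

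Same-numbered libraries of different groups had correlated deviations from their group means (r between 0.236 and 0.566 in the knockdown experiment and between 0.254 and 0.715 in the peptide experiment, against -0.439 to 0.0703 and -0.546 to 0.336 for other pairs), so the numbers were taken to pair the libraries. This pairing comes from the data, since the labels give numbers only.

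TPM were computed from the recovered reads and the union exon length in GENCODE v29 (20188 of 20365 genes matched). The members and gene lists were chosen with earlier results of these data known. All members could be named in each comparison, and for each list up to 4 genes with the smallest adjusted p. The score of a list is its mean log2 level per library minus the mean over Control KD or Scrambled peptide.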

Additional observations from a re-analysis of the deposited data

Results flagged for a closer look

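Of 34 tested Polycomb genes, 12 differed between the knockdowns in the direct test of EloB KD against EloC KD (limma with Benjamini-Hochberg adjustment). That share of 35.3% was below the 46.1% of all genes called in the same comparison. In log2 fold change of EloB KD over EloC KD, the differences were 1.84 for CBX6, 0.89 for PHC2, 0.74 for CBX7, 0.67 for EZH1 and 0.35 for PCGF3, which were higher in EloB KD. Lower in EloB KD were CBX2 at -1.29, BMI1 at -1.22, BCOR at -0.93, PCGF6 at -0.91, MTF2 at -0.58, PCGF1 at -0.38 and PHF1 at -0.38. BMI1 and CBX2 were called against Control KD in both knockdowns and in opposite directions. In EloB KD both calls were lost when certain single libraries were left out, and neither passed an adjusted p under 0.01. Quantile scaling did not keep both of these EloB KD calls.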

How the results depend on the processing

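The 20 alternatives for each comparison included a stricter threshold, TMM and quantile scaling, pseudocounts of 0.5 and 5, and no filter. The others were a mean of at least 50, edgeR, DESeq2, the 2 compared groups alone, the replicate block and each library left out. Across them, 3962 of 4071 values of single members stayed called in the same direction or stayed uncalled. Another 60 lost their call, 49 gained one, and 0 calls were reversed. Direction was not compared for values uncalled in both fits. At an adjusted p under 0.01, 2 of 34 members were called in EloB KD, where 503 of all 13764 genes were higher and 739 lower. At that threshold 5 of 34 were called in EloC KD, where 1851 of all 13764 genes were higher and 1923 lower. The replicate block called 14 members in EloB KD, 14 in EloC KD and 16 between the knockdowns. In the peptide experiment it called 6 with WT peptide against Scrambled peptide, 3 with Mutant peptide against Scrambled peptide and 3 with WT against Mutant peptide; it changed no other call. DESeq2 called 1 member with WT against Mutant peptide, where 47 of all genes were higher and 16 lower. Leaving out single libraries gave between 2 and 9 calls in EloB KD, between 6 and 9 in EloC KD, between 10 and 13 between the knockdowns, 1 with WT peptide and 0 in the other peptide comparisons. Calls over all genes moved in these fits as well, to 842 higher and 1143 lower of 13764 in EloB KD without EloB KD replicate 2. KDM2B in EloB KD lost its call under TMM scaling (adjusted p = 0.0513), quantile scaling (0.0713) and edgeR (0.0527), and RYBP in EloC KD lost its call with no filter (0.0507) and with the 2 groups alone (0.0633); the cause was not tested. DESeq2 gave no adjusted p for some members, leaving 33 with WT against Scrambled peptide and 26 with WT against Mutant peptide. Depth limits PHC1 most among the detected members, with 160 reads over the 3 Scrambled peptide libraries.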
